A study of Mus musculus with 4 samples.

Results

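The 32 genes described here encode the enzymes of cholesterol synthesis, the proteins that regulate that pathway, and the enzymes that build and desaturate fatty acids. They were taken from a list of symbols, and each was read by the brightest of the probe sets that the array annotation pairs with that symbol alone. Such a probe set was found for 31 of the 32 genes, all but Acat2, and all 31 passed the filter on low signals (a mean under the 40th percentile of probe sets), as did 12485 of 18193 genes named. The 31 comprised 17 enzymes of sterol synthesis, 6 genes of regulation and sterol transport and 8 of fatty acid synthesis.

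The study hybridised total RNA of embryonic stem (ES) cells of the mouse line E14.1 to 4 arrays, 1 for each combination of Sall4 genotype and feeder cells. The heterozygous cells (Sall4 flox/-) were line HET18 and the cells labelled null (Sall4 delta/-) were line KO1, so each genotype was 1 line, and line and genotype cannot be told apart. All 4 cultures grew in medium with serum and leukaemia inhibitory factor (LIF). All cells also had a blasticidin-resistance gene knocked into the Oct3/4 locus, and blasticidin in the medium selected for cells expressing Oct3/4. Cultures without feeders grew on gelatin, and cultures with feeders grew on blasticidin-resistant mouse fibroblasts, whose RNA was part of what those arrays measured.

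Cholesterol is made from acetyl-CoA through mevalonate, farnesyl diphosphate, squalene and lanosterol, and fatty acids are made from the same precursor by a carboxylase and a synthase. Most of these enzymes are targets of the sterol regulatory element-binding proteins (SREBPs), which are held in the endoplasmic reticulum by INSIG proteins when sterols are plentiful and escorted out by SCAP when sterols are scarce. SREBP-2 acts mainly on sterol genes and SREBP-1 mainly on fatty acid genes.

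Values are linear array signals, and differences are on the log2(signal + 4.6) scale, so a negative genotype difference means a lower signal in cells labelled null. Where signals are given as a pair, the heterozygous array comes first and the array labelled null second. Signals are not compared between genes, because probe sets bind with different strength. With 1 array per group, a difference between 2 arrays has no replicate check, and the number of arrays limits the precision. Array medians were 16.1 to 18 and the 3'/5' actin signal ratio was 1.22 to 1.29; the heterozygous array without feeders had the lowest median and an actin ratio of 1.27. Sall4 itself read 1127 and 1671 off feeders and 781 and 1452 on them, that is, higher under the null label (log2 difference 0.73, SE 0.12, limma adjusted p = 0.152). The labels do not say which part of the gene was deleted, so this probe set may not check the genotype, and every genotype direction rests on the labels. Of 10 ES cell markers all were above the filter on low signals, with summed signals of 21093 and 18073 in feeder-free culture, then 22240 and 21124 on feeders. Their median genotype difference was -0.29 without feeders and -0.02 on feeders. Without feeders 2 were at least 1.5-fold lower, Utf1 at -0.95 and Esrrb at -0.77, and 0 were at least 1.5-fold higher. By limma 0 passed for genotype, while Klf4 rose with feeders (adjusted p = 0.0228) and Lin28a fell (adjusted p = 0.0172).

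The array of heterozygous cells without feeders carried the highest signal for most of these genes. It was the highest of the 4 arrays for 22 of 31 members, against 25.2% of all genes tested, a count chosen after the values were seen. For 9 members it lay at least 1.5-fold above each of the other 3 arrays, against 1.03% of all genes: Hmgcs1, Idi1, Sqle, Lss, Cyp51, Msmo1, Dhcr7, Insig1 and Fads2. On that array 0 members lay at least 1.5-fold below all the others, against 5.58% of all genes. The array labelled null without feeders was the highest for Scap and Scd2, the heterozygous array on feeders for Pmvk, Ebp and Fads1, and the array labelled null on feeders for Hsd17b7, Sc5d, Insig2 and Elovl6.

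**Figure D1:**
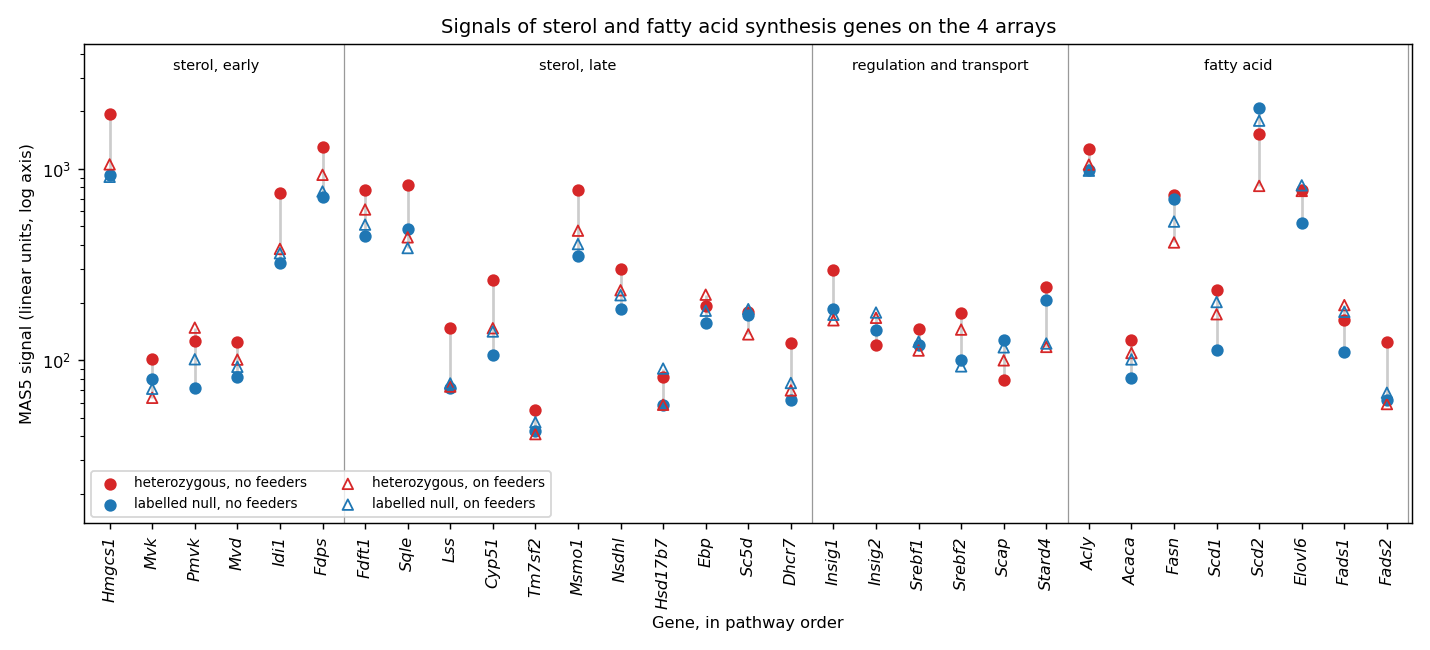
MAS5 signal (log axis) of 31 genes in pathway order on the 4 arrays, with colour for genotype and filled or open symbols for cultures without and on feeders; each point is 1 array and grey lines join the lowest and highest. The filled red points, heterozygous cells without feeders, are the highest for 22 of the 31 genes, and the other 3 arrays often lie close together, as for Lss, Idi1 and Fads2.

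The enzymes that make farnesyl diphosphate were lower in cells labelled null without feeders, all 6 of 6 by direction, with a median log2 difference of -0.82. On feeders 5 of the 6 were lower, with a median of -0.17. Of all 12485 genes tested, 6187 were lower without feeders and 6088 on feeders, which also applies to the branches below. Hmgcs1, which condenses acetyl-CoA and acetoacetyl-CoA to HMG-CoA, read 1945 (heterozygous) and 927 (labelled null) without feeders, against 1056 and 909 on feeders. Idi1, which isomerises isopentenyl diphosphate, read 747 and 322 without feeders, compared with 382 and 362 on feeders. Fdps, the farnesyl diphosphate synthase, read 1297 and 711 off feeders, against 931 and 762 on them. For Hmgcs1 and Idi1 the heterozygous array without feeders stood apart and the other 3 arrays lay within 0.22 and 0.24 log2 units of each other, while Fdps was also somewhat higher on the heterozygous array on feeders.

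The 3 enzymes that turn mevalonate into isopentenyl diphosphate stood less apart on that array. Mvk, the mevalonate kinase, read 101 and 79.5 in feeder-free culture, then 63.5 and 70.8 on feeders, so that both cultures without feeders were the higher ones. Mvd, the mevalonate diphosphate decarboxylase, read 124 and 81.8 without feeders, compared with 101 and 92.2 on feeders. A second Mvd probe set read 125.5 and 55.5 without feeders, compared with 92.7 and 77.9 on feeders. Its log2 genotype difference without feeders was larger, at -1.11, against -0.58 for the brightest one. Pmvk, the phosphomevalonate kinase, read 126 and 71.1 off feeders, against 148 and 101 on them. Pmvk was thus lower in cells labelled null in both conditions, 1.72-fold without feeders and 1.44-fold on feeders, and it was highest on the heterozygous array on feeders.

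The enzymes from farnesyl diphosphate to cholesterol were lower in cells labelled null without feeders by direction in 11 of 11, with a median of -0.76, and on feeders in 6 of 11, with a median of -0.06. Cyp51, which removes a methyl group of lanosterol, had the largest difference among all members without feeders, with signals of 262 and 107, or 2.39-fold, and read 147 and 141 on feeders. Msmo1, a methylsterol oxidase that acts after it, read 776 and 352 in feeder-free culture, then 475 and 404 on feeders. Lss, which closes the rings of lanosterol, read 147 and 71.4 without feeders, compared with 72.7 and 75.5 on feeders. For the brightest probe set of each of these 3 genes the heterozygous array without feeders was the high one, and for that of Lss the other 3 lay within 0.08 log2 units. The second Lss probe set read 49.3 and 32.4 off feeders, against 57.3 and 50.2 on them, and did not share this pattern. Nor did a dim Msmo1 probe set, at 11.4 to 15.1 over the arrays.

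Sqle, the squalene epoxidase, a rate-limiting enzyme, read 823 and 484 off feeders, against 439 and 386 on them. Fdft1, the squalene synthase, read 773 and 443 in feeder-free culture, then 613 and 511 on feeders. Dhcr7, which carries out a last reduction to cholesterol, read 124 and 61.6 without feeders, compared with 69.4 and 75.9 on feeders. Sqle was lower on feeders in both genotypes as well, whereas Fdft1 kept a higher signal on the heterozygous array in both feeder conditions. The sterol dehydrogenase gene Nsdhl was 1.61-fold lower in cells labelled null without feeders and 1.06-fold lower on feeders. The reductase gene Tm7sf2 was 1.25-fold lower without feeders and 1.14-fold higher on feeders.

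Late enzymes did not all share this pattern. Sc5d, the lathosterol oxidase, read 179 and 172 off feeders, against 136 and 185 on them, and Ebp, the sterol isomerase, read 192 and 156 in feeder-free culture, then 220 and 181 on feeders. Hsd17b7, a sterol ketone reductase, read 81.8 and 58.1 without feeders, compared with 58.4 and 90.3 on feeders. The difference of Hsd17b7 thus changed sign between the feeder conditions, and its 4 probe sets above the filter did not share a direction without feeders.

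Promoter sequences are shown to set the 4 sterol enzymes with the largest genotype difference without feeders, among those with a sequence in the table used, beside the 2 with the smallest. Each is the 250 bases before the RefSeq gene start on build GRCm38.p6, written 5' to 3' on the strand of the gene, with capitals marking matches to TCACNCCAC, a form of the sterol regulatory element, or CCAAT, the core of the box bound by the factor NF-Y, on either strand.
Cyp51, chr5:4104698-4104947, minus strand: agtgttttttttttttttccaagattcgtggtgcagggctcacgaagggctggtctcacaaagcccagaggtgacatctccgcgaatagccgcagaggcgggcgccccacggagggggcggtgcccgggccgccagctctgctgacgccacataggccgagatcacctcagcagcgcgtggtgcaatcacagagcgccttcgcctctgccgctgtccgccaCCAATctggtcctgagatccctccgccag
Idi1, chr13:8885356-8885605, plus strand: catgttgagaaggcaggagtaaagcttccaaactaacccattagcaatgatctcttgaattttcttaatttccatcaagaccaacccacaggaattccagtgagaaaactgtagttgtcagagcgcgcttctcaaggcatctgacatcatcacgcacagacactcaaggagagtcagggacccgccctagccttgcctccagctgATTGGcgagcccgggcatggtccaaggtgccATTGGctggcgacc
Msmo1, chr8:64733579-64733828, minus strand: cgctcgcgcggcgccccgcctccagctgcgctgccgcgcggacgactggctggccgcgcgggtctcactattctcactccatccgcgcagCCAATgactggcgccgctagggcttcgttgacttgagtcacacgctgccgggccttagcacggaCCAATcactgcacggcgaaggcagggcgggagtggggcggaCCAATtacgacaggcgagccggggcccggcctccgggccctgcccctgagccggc
Hmgcs1, chr13:119690101-119690350, plus strand: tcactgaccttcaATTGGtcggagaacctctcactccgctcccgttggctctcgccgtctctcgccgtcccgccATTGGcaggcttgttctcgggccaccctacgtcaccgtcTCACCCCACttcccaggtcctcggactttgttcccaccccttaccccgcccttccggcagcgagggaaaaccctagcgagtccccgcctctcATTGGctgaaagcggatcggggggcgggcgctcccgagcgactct
Sc5d, chr9:42264301-42264550, minus strand: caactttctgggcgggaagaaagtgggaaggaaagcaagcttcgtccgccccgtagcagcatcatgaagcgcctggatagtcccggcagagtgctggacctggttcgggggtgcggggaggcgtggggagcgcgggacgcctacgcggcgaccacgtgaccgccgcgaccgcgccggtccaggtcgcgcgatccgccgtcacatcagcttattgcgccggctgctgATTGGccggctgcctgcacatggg
Ebp, chrX:8193513-8193762, minus strand: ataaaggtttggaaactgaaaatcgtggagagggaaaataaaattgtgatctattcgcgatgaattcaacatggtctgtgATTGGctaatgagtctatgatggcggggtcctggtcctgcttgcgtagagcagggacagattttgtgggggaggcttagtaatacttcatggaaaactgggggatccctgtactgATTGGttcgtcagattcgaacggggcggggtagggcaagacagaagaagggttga
CCAAT or its reverse ATTGG was in all 6 windows, in those of the genes with the smallest differences as well. Over the 33 windows of the 25 members with a promoter in the table, some with more than 1 start, 60.6% held CCAAT on either strand, against 33.8% of all 32851 windows. The element TCACNCCAC was in 1 member window, that of Hmgcs1 at 137 to 129 bases before the start, or 3.03% of member windows, against 1.05% of all windows. With at most 1 of its 8 fixed letters changed, 33.3% of member windows and 20.7% of all windows held it. In the Hmgcs1 window the 2 motifs share no letters. A match is a description of the letters only.

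Among the regulators, the gene of SREBP-2 was lower in cells labelled null by direction in both conditions, and the gene of SREBP-1 had smaller differences. Srebf2 read 176 and 100 off feeders, against 144 and 92.7 on them, so both heterozygous arrays lay above both arrays labelled null. Its other probe set had smaller differences of the same sign, -0.45 without feeders and -0.16 on feeders, against -0.79 and -0.61 for the brightest one. Srebf1 read 145 and 120 in feeder-free culture, then 112 and 125 on feeders. Scap, the escort protein gene, read 78.8 and 127 without feeders, compared with 99.7 and 117 on feeders, the opposite order to that of most enzymes, and was 1.57-fold higher in cells labelled null without feeders. A second, dimmer Scap probe set was lower there by 0.46 log2 units, so the 2 probe sets disagreed.

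The 2 retention proteins differed from each other. Insig1, itself a target of SREBPs, read 295 and 184 off feeders, against 162 and 173 on them, with heterozygous cells without feeders as the high array. Insig2 read 120 and 144 in feeder-free culture, then 166 and 177 on feeders, with that same array as the low one. Stard4, which carries cholesterol between membranes, followed the feeders rather than the genotype, at 240 and 207 without feeders, compared with 117 and 122 on feeders. Both arrays without feeders lay above both arrays on feeders for Stard4, 2.01-fold in heterozygous cells and 1.67-fold in cells labelled null. A second probe set shared this order, but the third read 99.2 and 66.3 off feeders, against 62.6 and 70.5 on them, and did not.

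Fatty acid genes were split. In cells labelled null without feeders 7 of 8 were lower, with a median of -0.56, and on feeders 3 of 8, with a median of 0.14. Fads2, the desaturase that starts the synthesis of polyunsaturated fatty acids, read 124 and 61.8 off feeders, against 58.9 and 67.5 on them. Scd1, which makes monounsaturated fatty acids, read 233 and 112 in feeder-free culture, then 174 and 201 on feeders. Fads2 shared the pattern of the sterol enzymes, with 1 high array and 3 that lay within 0.18 log2 units, while for the brightest probe set of Scd1 the array labelled null without feeders was the low one. The second Scd1 probe set read 101 and 53.9 off feeders, against 52.8 and 50.2 on them, with 1 high array as for Fads2, so the 2 probe sets did not share a pattern. Acaca, the acetyl-CoA carboxylase gene, read 127 and 80.6 without feeders, compared with 109 and 101 on feeders. Acly, which supplies cytosolic acetyl-CoA from citrate, was 1.29-fold lower in cells labelled null without feeders and 1.08-fold lower on feeders.

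Scd2, a relative of Scd1, went the other way and was higher in cells labelled null in both conditions. It read 1529 and 2077 off feeders, against 815 and 1787 on them, with the heterozygous array on feeders as the low one. Its differences were 1.36-fold and 2.19-fold, and its 3 probe sets gave log2 differences of 0.44, 0.52 and 0.60 off feeders, and of 1.13, 1.40 and 1.27 on them. Fasn, the fatty acid synthase gene, read 735 and 697 in feeder-free culture, then 412 and 530 on feeders, so that, as for Stard4, both cultures without feeders were the higher ones. Elovl6, an elongase, read 778 and 520 without feeders, compared with 767 and 820 on feeders, and Fads1, the desaturase that acts after Fads2, read 161 and 110 off feeders, against 194 and 179 on them. For these brightest probe sets of Elovl6 and Fads1 the array labelled null without feeders was the low one, which held for none of their 3 dimmer probe sets above the filter.

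Counted over single pairs of arrays without a test, 16 of 31 members were at least 1.5-fold lower in cells labelled null without feeders, against 8.16% of all genes tested, and 1 (Scap) was at least 1.5-fold higher, against 10.1%. At 2-fold these were 5 members (Hmgcs1, Idi1, Cyp51, Msmo1 and Scd1) against 2.97% of all genes. Lss, Dhcr7 and Fads2 lay just under 2-fold, at 1.99-fold, 1.94-fold and 1.93-fold, and the 2-fold count was 1 with the mean of probe sets and 8 with median centring. The median over the members was -0.63 on the log2 scale and 0.00 over all genes. On feeders the median over members was 0.05, with 1 member (Srebf2) at least 1.5-fold lower, against 6.75% of all genes, and 2 (Hsd17b7 and Scd2) at least 1.5-fold higher, against 5.5%. The difference between the feeder conditions could not be tested, since it is the only residual degree of freedom of the 4 arrays.

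**Figure D2:**
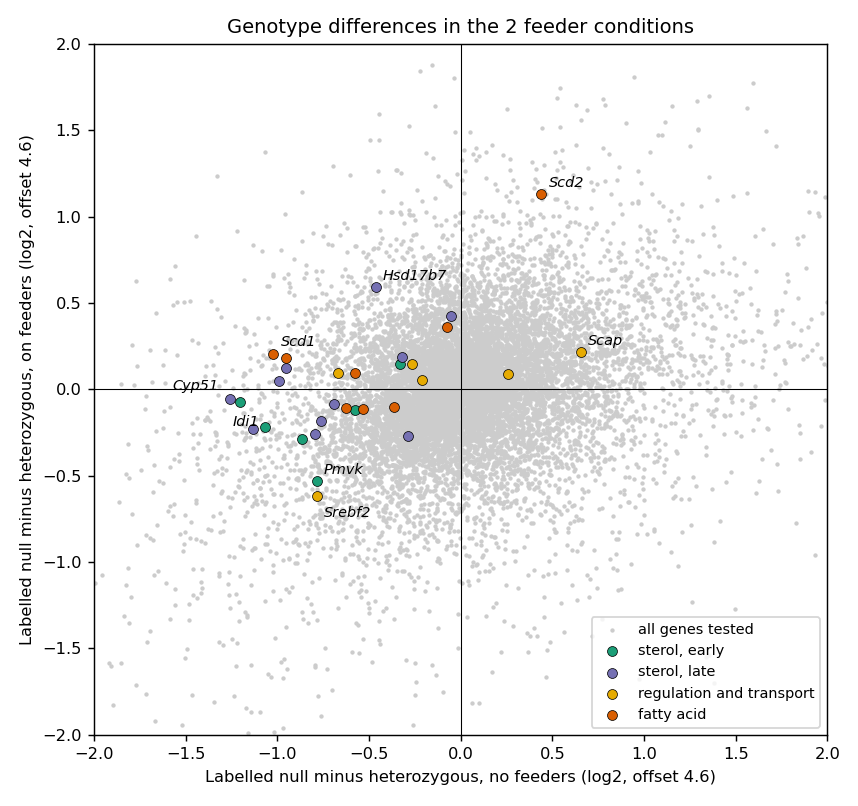
Log2 difference of cells labelled null minus heterozygous cells, without feeders (horizontal) and on feeders (vertical), each from 1 array against 1; grey points are the 12485 genes tested and coloured points the 31 members by branch, and 131 genes lie outside the limits of 2 log2 units. Most members lie left of 0 on the horizontal axis and near 0 on the vertical one, with Pmvk and Srebf2 low on both and Scd2 high on both.

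In the additive limma model with terms for genotype and feeders, 0 of 31 members passed an adjusted p of 0.05 for genotype, against 0.032% of all genes. At an unadjusted p under 0.05 there were 8 members, or 25.8%, against 12.3% of all genes. These 8 were Hmgcs1, Pmvk, Fdps, Fdft1, Sqle, Msmo1 and Srebf2, all lower in cells labelled null, and Scd2, which was higher. Genotype was also fitted as the only term with the heterozygous array without feeders left out. That fit sets the heterozygous array on feeders alone against both arrays labelled null, with and without feeders, so it mixes genotype with feeders. The log2 differences were then -0.20 for Hmgcs1, -0.34 for Fdps, -0.36 for Fdft1, -0.02 for Sqle and -0.33 for Msmo1. For Pmvk, Srebf2 and Scd2 they were -0.77, -0.56 and 1.24. In the model with both terms the fitted log2 difference was 0.79 for Scd2 (SE 0.17, limma adjusted p = 0.203) and -0.70 for Srebf2 (SE 0.18, adjusted p = 0.254). It was -0.66 for Pmvk (SE 0.19, adjusted p = 0.287). For the brightest probe sets all 8 had the same sign in both feeder conditions. The choice by p favours this, since the gap between conditions is the error, so it is no further support. A further Hmgcs1 probe set changed sign, at -0.87 without feeders and 0.30 on feeders, while the other Hmgcs1 ones above the filter did not. On feeders the differences of Scd2, Srebf2 and Pmvk were 1.13, -0.61 and -0.53, and those of the others were -0.18 to -0.29. Cyp51, with the largest single-pair difference, was at -1.26 without feeders and -0.06 on feeders for its brightest probe set. Its other probe set above the filter was at -1.21 and 0.04, so the 2 did not share a direction on feeders. For the brightest one the fitted difference was -0.66 with an SE of 0.30 (limma adjusted p = 0.462), as the model counts the gap between feeder conditions as error. No culture was replicated: the error rests on 1 residual degree of freedom, the gap between feeder conditions, and on 4.75 prior degrees of freedom from all genes, so these p-values do not measure the spread between cultures.

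The feeder comparison took another course in each genotype, without a test of that difference. In heterozygous cells 26 of 31 members were lower on feeders, against 5852 of 12485 genes tested. The median log2 difference was -0.41 over the members and 0.03 over all genes. Of the members 13 were at least 1.5-fold lower, against 6.94% of all genes tested, and 0 at least 1.5-fold higher, against 16.4%. At 2-fold 2 members, Stard4 and Fads2, were lower, against 1.64%, and the count was 0 with an offset at the median signal. In cells labelled null 10 of 31 were lower, against 5740 of 12485 genes, with a median of 0.13, against 0.04 over all genes. Of these members 1 (Stard4) was at least 1.5-fold lower, against 6.8% of all genes. There 4 members, Hsd17b7, Scd1, Elovl6 and Fads1, were at least 1.5-fold higher, against 14.1%. The comparison by feeders in heterozygous cells and the comparison of genotypes without feeders share the heterozygous array without feeders, so their like values are not 2 independent results. The pairs without that array, genotypes on feeders and feeders in cells labelled null, had the member medians of 0.05 and 0.13.

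**Figure D3:**
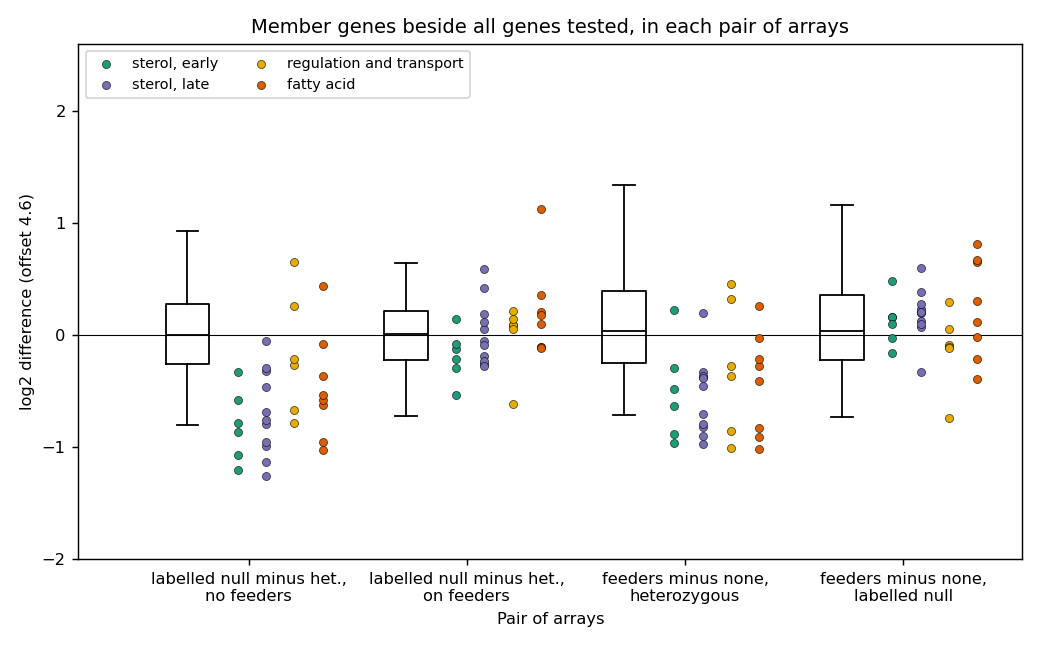
Log2 differences in the 4 pairs of arrays, with boxes for the 12485 genes tested (median, quartiles, whiskers at the 5th and 95th percentiles) and points for single member genes coloured by branch. Member points lie mostly below 0 in the 2 pairs that share the array of heterozygous cells without feeders, and around or above 0 in the other pairs.

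For feeders, 0 of 31 members passed an adjusted p of 0.05 in the limma model, against 4.77% of all genes, and 4 members had an unadjusted p under 0.05, or 12.9%, against 21.8%. All 4 were lower on feeders. Stard4 had a fitted log2 difference of -0.87 (SE 0.18, limma adjusted p = 0.0567), Fasn of -0.61 (SE 0.15, adjusted p = 0.0963), Sqle of -0.61 (SE 0.18, adjusted p = 0.126) and Scd2 of -0.56 (SE 0.17, adjusted p = 0.139). Stard4 passed with quantile normalization (adjusted p = 0.0484) and with median centring (adjusted p = 0.0444), within a range of 0.0444 to 0.457 over its alternatives. Without the array labelled null without feeders, and with feeders as the only term, Hmgcs1, Idi1 and Sqle passed, against 4.28% of all genes. That fit sets the heterozygous array without feeders alone against 2 arrays, and the values of these genes on that array are already described, so it is no further support.

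Some markers of other cells moved with these comparisons. Of 27 fibroblast markers 25 rose with feeders by limma, against 4.77% of all genes that passed in either direction. All 27 were above the filter, but it is on the mean over the arrays. A marker could thus pass through the arrays on feeders, as did Fap, at 1.8 and 4.5 without feeders. The summed signals of the markers were 4286 and 8847 in feeder-free culture, then 25336 and 34070 on feeders. No fibroblast marker was highest on the heterozygous array without feeders, and their median genotype difference without feeders was 0.92. Lum had the lowest signal of these markers, at 1.3 on the heterozygous array without feeders, under the 25th percentile of all signals (4.6). With no detection calls, signals this low do not show whether the RNA was present. In cells labelled null the median feeder difference of the fibroblast markers was 3.49. In that pair 21 of 31 members were higher and 10 lower, against 6722 and 5740 of the 12485 genes tested. The part of fibroblast RNA in the member differences was not tested. Fewer cells of a type and less RNA per cell cannot be told apart in such bulk samples. Of 8 adipocyte markers 6 had a probe set and 2 were above the filter, with summed signals of 112 to 177 over the arrays, and Adipoq read 0.7 to 10.4. Of 6 visceral endoderm markers 2 were above the filter, with sums of 97.3 and 60.4 without feeders, compared with 98.8 and 26.9 on feeders. Both of these, Amn and Cubn, were lower in cells labelled null, with log2 differences of -0.76 and -0.93 off feeders and of -1.89 and -1.17 on them, although neither passed for genotype (limma adjusted p = 0.272 and 0.24). The part of such cells in the member differences was not tested. Of 6 macrophage and blood markers 4 were above the filter, with sums of 142 and 114 without feeders, compared with 317 and 312 on feeders. Most of that rise was in 1 gene, Lyz2, at 1.6 and 8.6 off feeders, against 142 and 168 on them (limma adjusted p = 0.00285). Adgre1, Csf1r and Cd68 did not pass for feeders (limma adjusted p = 0.689, 0.801 and 0.516).

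Further probe sets of the same genes agreed in part. The 31 genes had 64 probe sets above the filter, and 21 genes had more than 1. Without feeders 52 of 64 probe sets were lower in cells labelled null, 28 of them at least 1.5-fold, and 2 were at least 1.5-fold higher, while on feeders 28 of 64 were lower. Both brighter probe sets of Cyp51 differed by -1.26 and -1.21, both of Idi1 by -1.20 and -1.18, and both brighter ones of Fads2 by -0.95 and -1.05. Probe sets of 7 genes disagreed in direction without feeders: Msmo1, Hsd17b7, Sc5d, Insig2, Scap, Elovl6 and Fads1. Between genotypes on feeders those of 10 genes did, and in the feeder comparisons those of 5 genes (heterozygous) and 9 (labelled null) did so. Among these was Lss, whose second probe set was higher on feeders in heterozygous cells by 0.20 log2 units, against a difference of -0.97 for the brightest one. Probe sets of 1 gene share the RNA and the array, so they check the probe and not the culture.

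**Figure D4:**
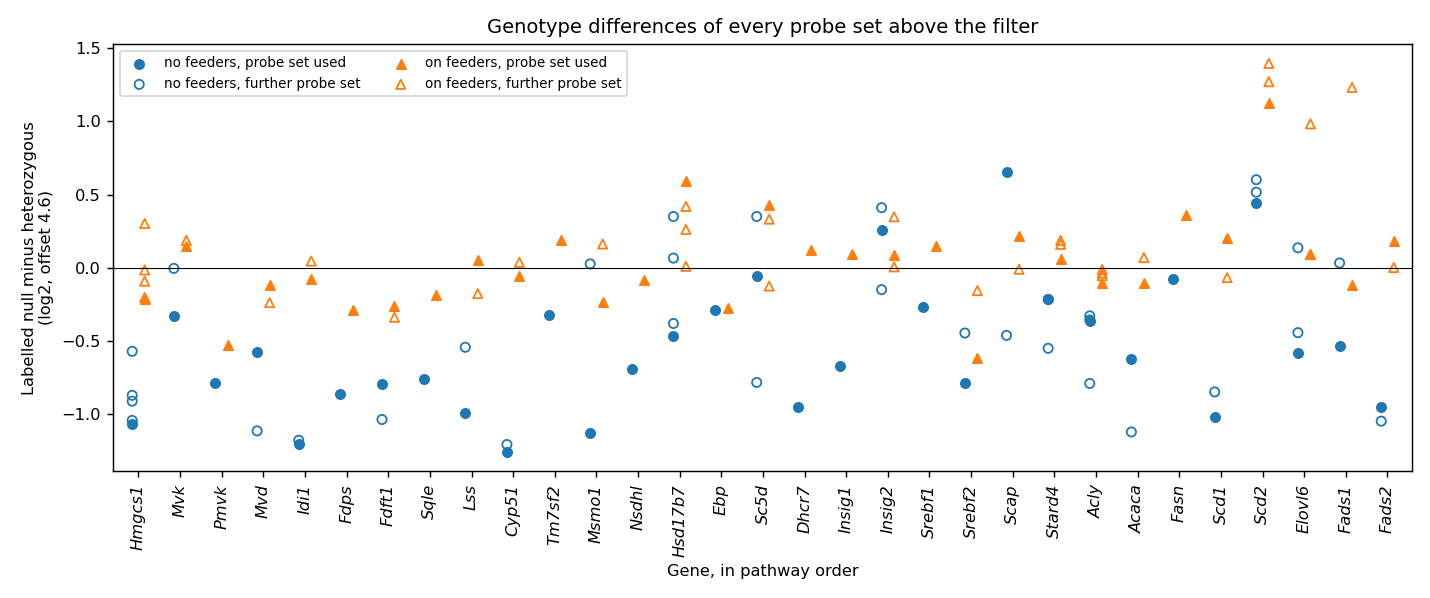
Log2 difference of cells labelled null minus heterozygous cells for each of 64 probe sets above the filter, by gene in pathway order; circles are the pair without feeders, triangles the pair on feeders, and filled symbols mark the probe set used for the gene. Circles lie below 0 for most genes and triangles around 0, apart from the 3 probe sets of Scd2, which lie above 0 in both.

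Related genes outside the list are given by count. Of 22 further genes of sterol and isoprenoid metabolism 18 were tested, 1 (5.56%) was highest on the heterozygous array without feeders, against the 25.2% of all genes, and the median genotype difference without feeders was 0.04. None of the 18 passed for genotype by limma, and 4 rose with feeders: the receptor genes Vldlr and Lrp1, by 3.12 and 2.23 on the log2 scale (adjusted p = 0.00392 and 0.00536), the lysosomal cholesterol transporter gene Npc2 by 0.76 and the ligase gene Mylip by 0.99. Abca1, which exports cholesterol from cells, read 150 and 750 off feeders, against 357 and 608 on them, with the heterozygous array without feeders as the low one. Its fitted genotype difference of 1.53 (SE 0.35) did not pass (limma adjusted p = 0.221). Apoe, a lipoprotein component, read 1489 and 811 in feeder-free culture, then 1644 and 1780 on feeders, and Cyp27a1, a sterol hydroxylase, 8.9 and 3.9 without feeders, compared with 27.9 and 19.3 on feeders. Nr1h3, which encodes a sterol-sensing nuclear receptor, was under the filter, at 10.4 and 8.1 off feeders, against 1.9 and 22.2 on them.

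Of 29 further fatty acid and lipid genes 26 were tested, 9 (34.6%) were highest on the heterozygous array without feeders, also against 25.2% of all genes, and the median genotype difference without feeders was -0.09. None passed for genotype by limma, while Cpt1a, which admits fatty acids to mitochondria for oxidation, rose with feeders by 1.28 on the log2 scale (SE 0.19, limma adjusted p = 0.0234), and the binding protein gene Fabp5 fell by 0.69 (SE 0.10, adjusted p = 0.0198). Fabp3, another fatty acid binding protein gene, read 1445 and 515 in feeder-free culture, then 1967 and 828 on feeders, and both heterozygous arrays lay above both arrays labelled null (log2 difference -1.36, SE 0.11, limma adjusted p = 0.0519). Acss2, which makes acetyl-CoA from acetate, read 39.3 and 28.5 without feeders, compared with 89.5 and 42.4 on feeders. Mlxipl, which encodes a glucose-responsive transcription factor of lipid synthesis, read 25.3 and 14.5 off feeders, against 42.2 and 17.6 on them. Acss2 and Mlxipl were thus highest on the heterozygous array on feeders, unlike most sterol enzymes.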

How the data were processed

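Total RNA of 4 mouse ES cell cultures was labelled with biotin and measured on 1 array each. The deposited values are linear MAS5 signals (array intensity), per the submitters' processing notes, with no version or detection calls; the 2% trimmed mean was 100 on every array, so none was rescaled. Of 45101 probe sets, 64 were controls and left out; 34945 had 1 gene symbol, 932 several and 9160 none, and only those with 1 symbol were used.

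Signals were transformed as log2(signal + 4.6), the offset being the 25th percentile of all signals. For each gene the probe set of highest mean log2 value was used, and genes under the 40th percentile of probe sets (signal 9.46) were left out. The model with genotype and feeder terms was fitted in limma 3.58.1 (R 4.3.3; lmFit, eBayes with a variance trend) on 12485 genes, two-sided, adjusted by Benjamini-Hochberg, with 1 residual and 4.75 prior degrees of freedom, and was tested on simulated data. In counts past a fold, the brighter array had to exceed the median signal of 17.1. Promoters came from RefSeq on GRCm38.p6.

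The members, lists and tests were chosen with earlier results of these data known. Named genes were all members, the regulators, and related genes at least 2-fold apart in any pair; Npc2 and Fabp5 lie outside this rule and were named after their values were seen, as they passed for feeders. Alternatives covered the offset, filter, scaling, probe set, variance prior, model, arrays and fold; counts over every probe set and of the highest array were added after seeing the data.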

Additional observations from a re-analysis of the deposited data

Results flagged for a closer look

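In 4 cases a member differed by at least 1.3-fold in opposite directions in the 2 conditions of the other factor, from 1 pair of arrays each. None of these differences was tested. For the brightest probe set of Hsd17b7 the genotype difference was -0.46 without feeders and 0.59 on feeders, a gap of 1.05 log2 units. Its feeder difference was -0.46 for heterozygous cells but 0.60 under the null label, a gap of 1.05. The dimmer Hsd17b7 probe sets above the filter had feeder differences of -0.01 and 0.19, -0.89 and -0.09, and -0.25 and -0.59, none as large in opposite directions. For genotype 1 of them also changed sign, at -0.38 and 0.42, while the others were at 0.07 and 0.26, and at 0.35 and 0.01. For Cyp51 the feeder difference was -0.82 for heterozygous cells but 0.39 under the null label, a gap of 1.20. For the brightest probe set of Scd1 it was -0.41 and 0.82, a gap of 1.23, but for the other one it was -0.88 and -0.09, with no change of sign. Within a gene, both gaps are the same residual of the additive model.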

How the results depend on the processing

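No paired analysis was possible because each group had 1 array and the labels carry no replicate numbers. No member passed for genotype under any alternative run by limma. For feeders the count of 0 became 1 (Stard4, at -0.91 and -0.94) with quantile normalization and median centring, and 0 to 3 when leaving out each array with the 1-factor model; Sqle was at -0.99 without the array labelled null without feeders, while leaving out 1 array moved Scd2 from -0.56 to between -1.13 and 0.0041, the latter without the heterozygous array on feeders. Of counts at 2-fold, the 5 lower members between genotypes without feeders became 16 at 1.5-fold, 0 at 3-fold, 12 over every probe set, 8 with median centring and 1 with the mean of probe sets; 0 higher became 1 at 1.5-fold. On feeders, 1 higher became 2 at 1.5-fold, 0 at 3-fold and 4 over every probe set, and 0 lower became 1 at 1.5-fold. By feeders in heterozygous cells, 2 lower became 13 at 1.5-fold, 0 at 3-fold, 9 over every probe set, 0 with the offset at the median signal and 4 with median centring. In cells labelled null, 0 higher became 4 at 1.5-fold and 1 over every probe set, and 0 lower became 1 at 1.5-fold. Fewer or more genes pass another fold by construction; for the other settings the cause was not tested. The count of 22 members highest on the heterozygous array without feeders was 22 to 24 under other scalings and probe set rules. The member medians moved by less than 0.1 log2 units under each offset, filter, scaling and probe set alternative, from -0.69 to -0.55 between genotypes without feeders. Signals with no detection calls limit what the dim probe sets can show.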
